A study of Mus musculus with 6 samples.

Results

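The insulin-like growth factor (IGF) genes described here are 10 of the 23358 gene rows of the deposited count table, found by their symbols. They are the ligand genes Igf1 and Igf2, the receptor genes Igf1r and Igf2r, and the binding protein genes Igfbp2, Igfbp3, Igfbp4, Igfbp5, Igfbp6 and Igfbp7. RNA came from the mouse line MC3T3-E1, pre-osteoblasts that originate from C57BL/6 calvaria. Confluent cultures had been exposed for 16 h to NU7441 at 1 µM, which inhibits DNA-dependent protein kinase (DNA-PK), or to its solvent DMSO. Both groups were grown in the same medium with serum, and each has 3 sequenced samples. The design text states that triplicates were pooled across independent experiments but not what a sample number stands for, so the tests measure the spread between these samples, which may be technical.

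IGF1 and IGF2 are secreted peptides that signal through the tyrosine kinase receptor encoded by Igf1r, and in bone they act on the growth, survival and matrix production of osteoblasts. The receptor encoded by Igf2r does not signal in that way but takes IGF2 into the cell for degradation. Binding proteins hold most extracellular IGF, and proteases such as those encoded by Pappa and Pappa2 release it by cutting them.

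The samples held between 47312968 and 71292628 counts. Col1a1, the main bone collagen gene, averaged 18601 ± 176 CPM (counts scaled to library size) in NU7441 and 18584 ± 699 CPM in DMSO (SD, n = 3 each). Runx2, a regulator of the osteoblast lineage, averaged 176 ± 5.20 CPM in NU7441 and 174 ± 5.95 CPM in DMSO. Bglap, a marker of mature osteoblasts, had 2 to 12 counts in a sample. Of the 7 osteoblast markers tested, 2 were higher and 2 lower. Spp1, which encodes osteopontin, averaged 1632 ± 60.5 CPM in NU7441 and 1377 ± 28.7 CPM in DMSO (edgeR adjusted p = 5.2e-06), and Col1a2 rose by 0.05 on the log2 scale (adjusted p = 0.024, edgeR). Ibsp, the bone sialoprotein gene, averaged 7.09 ± 1.94 CPM in NU7441 and 13.1 ± 1.80 CPM in DMSO (edgeR adjusted p = 0.00041). Alpl, the alkaline phosphatase gene, averaged 32.7 ± 2.73 CPM in NU7441 and 39.9 ± 4.68 CPM in DMSO (edgeR adjusted p = 0.0060). In a robust fit the calls of Ibsp, Alpl and Col1a2 were lost (edgeR adjusted p = 0.059, 0.095 and 0.19). That of Col1a2 was also lost with library size alone and with DESeq2. The same held without NU7441 replicate 2, NU7441 replicate 3, DMSO replicate 1 or DMSO replicate 2. Among markers of other cell types, Myod1, Myf5, Kdr, Ptprc and Acan had 0 counts in all 6 samples and Adipoq, Plin1 and Cidec at most 6 counts, while others were expressed. Sox9 averaged 79.3 ± 1.26 CPM in NU7441 and 72.2 ± 1.16 CPM in DMSO, and Cebpa averaged 22.4 ± 0.487 CPM in NU7441 and 20.9 ± 0.687 CPM in DMSO. Col2a1 averaged 9.94 ± 0.948 CPM in NU7441 and 8.49 ± 0.203 CPM in DMSO, and Cd14 averaged 2.66 ± 0.224 CPM in NU7441 and 1.85 ± 0.114 CPM in DMSO. Summed levels were 22.5 to 24.0 CPM in NU7441 and 20.8 to 22.1 CPM in DMSO for 6 adipocyte markers, of which Cebpa made up most. They were 1.07 to 1.80 CPM in NU7441 and 1.01 to 1.34 CPM in DMSO for 5 muscle markers, and 0.267 to 0.625 CPM in NU7441 and 0.288 to 0.502 CPM in DMSO for 5 endothelial markers. They were 86.9 to 91.1 CPM in NU7441 and 79.9 to 82.1 CPM in DMSO for 5 chondrocyte markers, of which Sox9 and Col2a1 were called higher, and 4.56 to 4.96 CPM in NU7441 and 3.78 to 4.54 CPM in DMSO for 5 macrophage markers, of which Cd14 was called higher. The call of Col2a1 was lost with any sample but NU7441 replicate 3 left out, and that of Cd14 without DMSO replicate 3 (adjusted p = 0.054, edgeR). The 6 proliferation markers (Mki67, Top2a, Plk1, Ccnb1, Rrm2 and Tk1) were all lower in NU7441, with a summed level of 327 to 389 CPM in NU7441 samples and 871 to 996 CPM in DMSO samples. The shifts of the osteoblast, proliferation, chondrocyte and macrophage markers accompany each difference given here, and their part in it was not tested. In bulk RNA, fewer cells of a kind and less RNA per cell cannot be told apart.

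The comparison of NU7441 with DMSO asks how transcripts of the IGF system stand in pre-osteoblasts exposed to this DNA-PK inhibitor. Both ligand genes, the signalling receptor gene Igf1r and the binding protein genes Igfbp6 and Igfbp7 rose, by 1.13-fold to 1.48-fold. Igf2r, Igfbp2, Igfbp4 and Igfbp5 did not pass the test, and Igfbp3 had no counts. Of the 9 members tested with edgeR's quasi-likelihood test, 5 were higher and 0 lower at a Benjamini-Hochberg adjusted p of 0.05, and 4 were not called. At an unadjusted p of 0.05 the same test also gave 0 lower, as did DESeq2 after adjustment. Of all 13784 genes tested, 30.7% were called, 14.1% higher and 16.6% lower. The median log2 fold change was 0.17 over the 9 members and 0.0052 over all tested genes. The 5 called members were also those whose NU7441 and DMSO samples did not overlap in CPM, which held for 42.8% of all tested genes. With upper-quartile scaling 56.5% of all calls were higher, against 45.9% with the TMM scaling used here and 37.7% with library size alone, and the same 5 members were called under all 3.

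Promoter sequences are shown for the called members with a single window in the RefSeq promoter table, and for Igfbp4, the member with the highest level, as a contrast. Each is the 250 bases before the start site, 5′ to 3′ along the gene, from RefSeq on GRCm38.p6, the assembly behind mm10. Capitals mark matches on either strand to TATAAA (the TATA box), CCAAT (the CCAAT box), GGGCGG (the GC box, bound by SP factors), TGANTCA (AP-1, bound by JUN and FOS proteins), GTAAACA (FOXO) and TTTCCCGC (E2F).

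Igf1, chr10:87860861-87861110, plus strand: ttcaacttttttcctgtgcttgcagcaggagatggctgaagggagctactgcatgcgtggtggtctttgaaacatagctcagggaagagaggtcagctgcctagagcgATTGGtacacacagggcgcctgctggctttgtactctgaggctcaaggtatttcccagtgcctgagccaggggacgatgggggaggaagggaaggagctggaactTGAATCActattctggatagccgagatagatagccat
Igf1r, chr7:67952007-67952256, plus strand: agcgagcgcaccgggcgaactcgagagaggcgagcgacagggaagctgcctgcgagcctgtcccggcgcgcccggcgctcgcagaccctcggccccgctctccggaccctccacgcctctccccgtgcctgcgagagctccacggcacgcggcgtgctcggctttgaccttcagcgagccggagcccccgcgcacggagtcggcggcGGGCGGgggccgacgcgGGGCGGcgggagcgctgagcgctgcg
Igfbp6, chr15:102143936-102144185, plus strand: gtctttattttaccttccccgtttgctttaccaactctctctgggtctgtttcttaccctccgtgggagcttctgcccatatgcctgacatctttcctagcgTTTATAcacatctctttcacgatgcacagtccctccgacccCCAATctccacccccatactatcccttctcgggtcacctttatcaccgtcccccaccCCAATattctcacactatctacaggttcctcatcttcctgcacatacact
Igfbp7, chr5:77408046-77408295, minus strand: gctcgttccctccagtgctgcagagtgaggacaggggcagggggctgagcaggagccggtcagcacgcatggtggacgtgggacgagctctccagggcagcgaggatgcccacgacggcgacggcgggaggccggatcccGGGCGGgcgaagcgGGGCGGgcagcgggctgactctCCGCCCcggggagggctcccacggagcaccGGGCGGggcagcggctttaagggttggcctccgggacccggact
Igfbp4, chr11:99040994-99041243, plus strand: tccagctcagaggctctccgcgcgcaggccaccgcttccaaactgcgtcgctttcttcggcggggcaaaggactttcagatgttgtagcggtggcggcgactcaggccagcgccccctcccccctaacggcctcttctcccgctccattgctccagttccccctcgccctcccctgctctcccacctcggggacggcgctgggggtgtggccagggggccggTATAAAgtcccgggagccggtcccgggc

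The Igf1 window held 1 AP-1 match, 37 bases before the start, and 1 CCAAT box, and its start site lies 2055 bases inside the deposited Igf1 interval, so it stands for only 1 of the gene's starts. The Igfbp7 window held 4 GC boxes and the Igf1r window 2, with a base composition of 74.0% and 77.6% G or C, against a median of 52.4% over 32851 RefSeq windows of the same length. The Igfbp6 window held 2 CCAAT boxes and a TATAAA match 148 bases before the start. The Igfbp4 window held a TATAAA match 28 bases before the start. Members that were not called held such letters too. The Igf2r window held 3 GC boxes at 69.2% G or C, and window 1 of Igfbp2 held 3 at 67.2%. Window 2 of Igfbp2 held an AP-1 match 39 bases before the start. These windows are not shown, nor is Igf2, which has 4 windows in that table. Among all windows, 6.75% held the AP-1 letters, 33.8% the CCAAT box, 32.7% the GC box and 12.4% the TATA box, some of them overlapping. The FOXO letters, in 3.17% of all windows, and the E2F letters, in 0.895%, were in none of the 14 windows of the 10 members. Matches describe letters only.

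Levels of different genes were compared per length, as the deposited RPKM, which divides a count by gene length and sample depth. Igfbp4, whose product is a soluble inhibitor of IGF action, stood highest at 272 ± 22.9 RPKM in NU7441 and 266 ± 12.6 RPKM in DMSO (SD, n = 3 each). Igfbp5, which encodes a binding protein stored in bone matrix, followed with 85.5 ± 2.77 RPKM in NU7441 and 85.5 ± 5.89 RPKM in DMSO. In DMSO the order went on with Igfbp2, Igf2r, Igfbp7, Igfbp6, Igf1, Igf1r and Igf2, and no neighbours in that order overlapped between samples. In NU7441 Igfbp7 stood before Igf2r instead, at 49.5 ± 2.46 and 49.4 ± 1.34 RPKM, and the samples of these neighbours, like those of Igfbp2 and Igfbp7, overlapped. Igf2 was the lowest of the detected members, at 5.25 ± 0.298 RPKM in NU7441 and 4.20 ± 0.137 RPKM in DMSO. The deposited gene length sets this order in part, since for Igfbp4 it is 2066 bases where the merged exons of GENCODE M21 cover 4416. With the GENCODE lengths, chosen after seeing the data, Igfbp4 and Igfbp5 still led. Igf1, Igf1r and Igf2 were still last of the detected members. Igfbp2, Igf2r and Igfbp7 changed places in NU7441, but only Igfbp2 and Igf2r did so in DMSO.

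**Figure D1:**
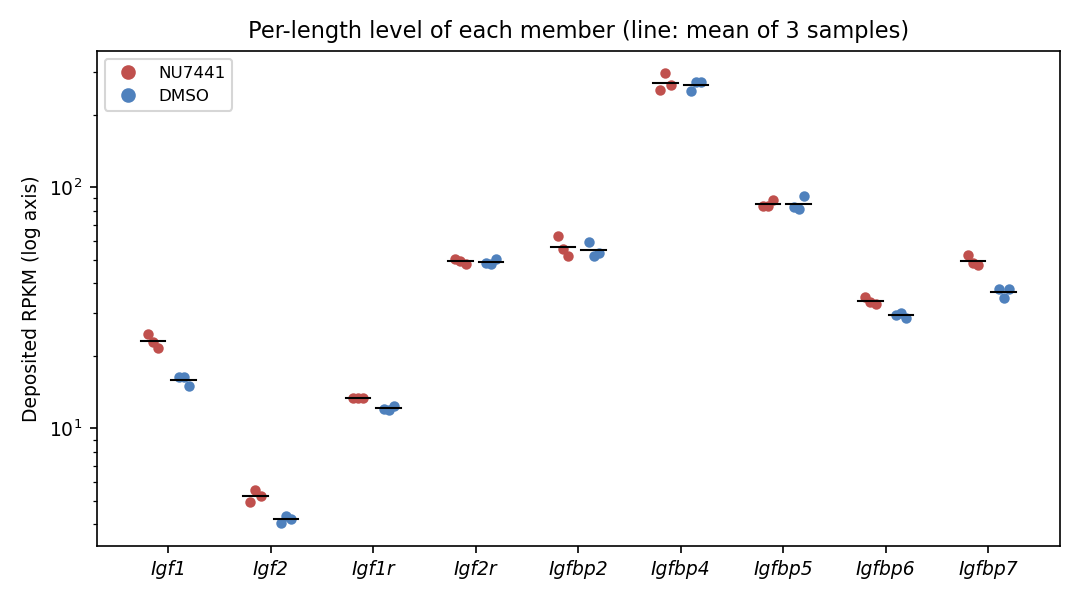
Deposited RPKM of the 9 detected members on a log axis, NU7441 left of DMSO for each gene, with 1 point per sample and a line at the mean of 3 samples. Igfbp4 lies highest at 272 RPKM in NU7441 and 266 RPKM in DMSO and Igf2 lowest at 5.25 RPKM in NU7441 and 4.20 RPKM in DMSO, and the groups of Igf1, Igf2, Igf1r, Igfbp6 and Igfbp7 are apart.

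Igf1 (mm10 chromosome 10, 87859056 to 87937047) had the largest rise among the members. Its level was 257, 243 and 229 CPM in the 3 NU7441 samples, against 169, 171 and 154 CPM in the 3 DMSO samples. Every NU7441 sample thus lay well above every DMSO sample. The log2 fold change was 0.56 ± 0.04 (SE; edgeR adjusted p = 2.2e-07), a 1.48-fold rise with a 95% interval of 1.38 to 1.58, and larger than that of 97.9% of all tested genes. The table counts Igf1 as a whole gene, so its transcript variants were not separated.

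Igf2 (mm10 chromosome 7, 142650768 to 142661035), an imprinted growth factor gene of fetal tissues, rose at a lower level. It stood at 27.9, 32.1 and 30.1 CPM in NU7441 samples, against 22.6, 24.4 and 23.5 CPM in DMSO samples. The groups did not overlap, and NU7441 replicate 1 lay closest to DMSO. For Igf2 this gave a log2 fold change of 0.36 ± 0.05 (adjusted p = 9.5e-05, edgeR), or 1.28-fold with an interval of 1.19 to 1.38. The interval of the row, introns included, shares 1343 bases with that of the antisense gene Igf2as, which had 0 to 6 counts in a sample. The ratio of Igf1 to Igf2 within a sample, on the RPKM scale and so free of scaling between samples, was 4.99, 4.11 and 4.13 in NU7441 and 4.04, 3.80 and 3.55 in DMSO. The ratio was chosen after the values were seen, and the groups lay apart by less than the spread within either. It contains the rises of Igf1 and Igf2 given above and is not a separate result.

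Igf1r (mm10 chromosome 7, 67952257 to 68233667) changed little in size but with little spread. Its level was 213, 219 and 217 CPM in NU7441 samples, against 190, 191 and 195 CPM in DMSO samples. The groups were apart, with a standard deviation of 1.51% of the mean in NU7441 and 1.56% in DMSO. The log2 fold change was 0.17 ± 0.03 (edgeR adjusted p = 0.00035), or 1.13-fold with an interval of 1.08 to 1.18. The ratio of Igf1 to Igf1r on the RPKM scale was also chosen after the values were seen. It was 1.85, 1.70 and 1.62 in NU7441 samples and 1.37, 1.37 and 1.21 in DMSO samples, which did not overlap. This ratio contains the rises of Igf1 and Igf1r given above and is not a separate result.

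Igf2r (mm10 chromosome 17, 12682406 to 12769706), which encodes the clearance receptor, had 599, 605 and 582 CPM in NU7441 samples, against 574, 574 and 593 CPM in DMSO samples. The groups overlapped. Its log2 fold change was 0.04 ± 0.03 (edgeR adjusted p = 0.35), and the 95% interval of the fold ran from 0.985 to 1.07. The interval of the imprinted antisense RNA gene Airn overlaps that of Igf2r by 28396 bases. These intervals include introns, and the deposited length of Igf2r is 8929 bases. Airn had 404 to 692 counts in a sample, where Igf2r had 27242 to 42536. The strand setting of the counting was not given in the sources used here. Reads of both genes therefore cannot be told apart where counted parts of both overlap, and the extent of such parts was not measured. The ratio of Igf2r to Igf1r, also chosen after the values were seen, was 3.77, 3.70 and 3.59 in NU7441 samples. In DMSO samples it was 4.06, 4.04 and 4.07, without overlap. It contains the rise of Igf1r given above and is not a separate result.

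**Figure D2:**
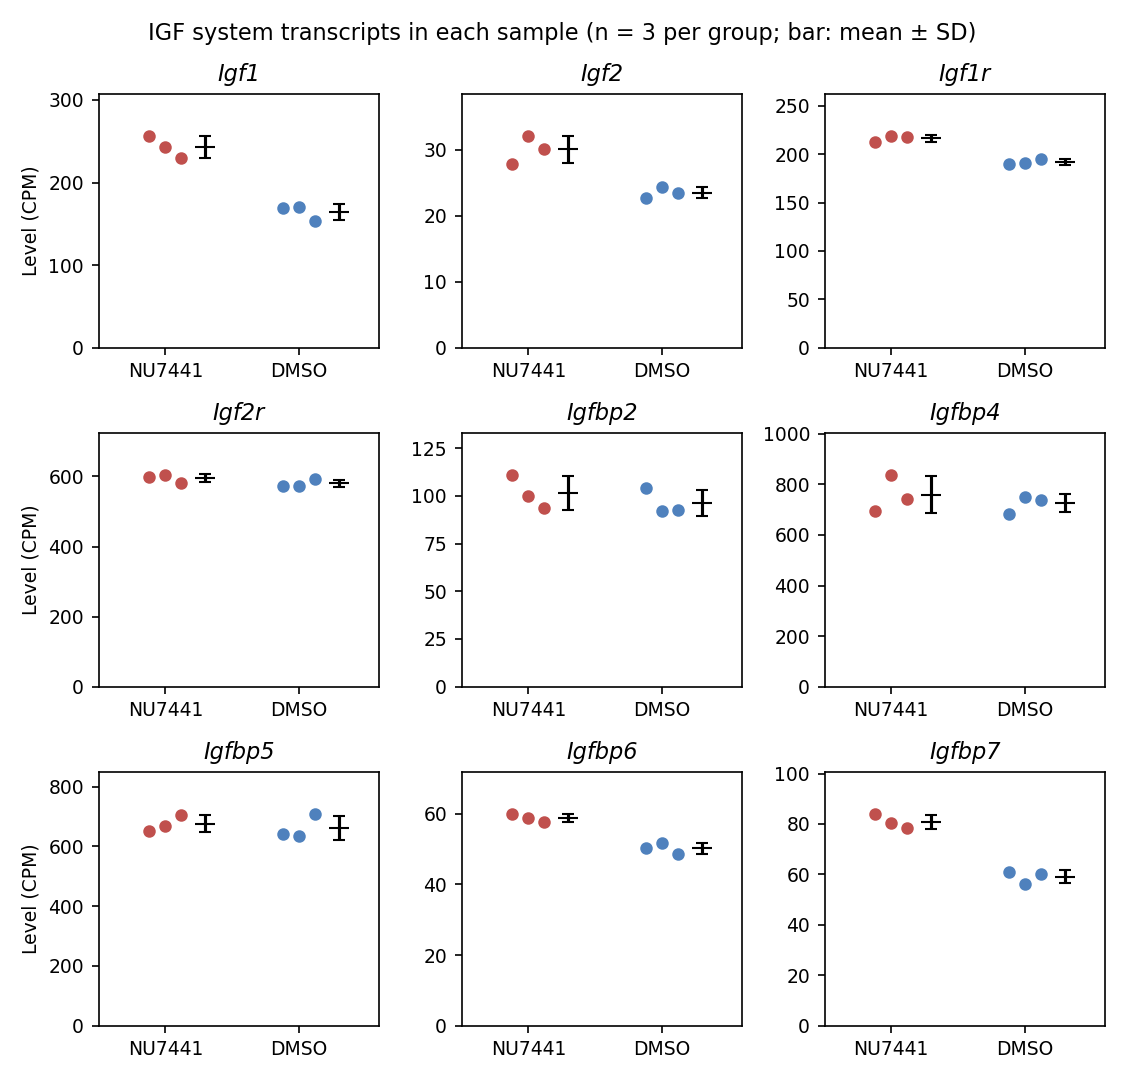
Level in CPM of each detected member in each sample, NU7441 on the left and DMSO on the right of each panel, with the mean and SD of 3 samples beside the points and all axes starting at 0. For Igf1 the NU7441 samples lie from 229 to 257 CPM and the DMSO samples from 154 to 171 CPM, while for Igf2r, Igfbp2, Igfbp4 and Igfbp5 the groups overlap.

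Of the 6 binding protein genes, Igfbp7 and Igfbp6 rose, 3 overlapped between groups and 1 was not detected. Igfbp7 (mm10 chromosome 5, 77349240 to 77408045) encodes a secreted, matrix-associated protein that is related to the classical binding proteins but binds IGF weakly. It had 84.0, 80.3 and 78.5 CPM in NU7441 samples, against 60.8, 56.4 and 60.2 CPM in DMSO samples. All NU7441 samples were above all DMSO samples by far more than either group's spread. The log2 fold change was 0.45 ± 0.04 (edgeR adjusted p = 6.5e-07), or 1.37-fold with an interval of 1.29 to 1.45. The row shares 89 bases with that of Polr2b.

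Igfbp6 (mm10 chromosome 15, 102144186 to 102149512), whose product prefers IGF2 to IGF1, had 60.0, 58.8 and 57.5 CPM in NU7441 samples, against 50.2, 51.8 and 48.5 CPM in DMSO samples. The groups were apart. Igfbp6 was 1.17-fold higher with an interval of 1.11 to 1.24 (log2 fold change 0.23 ± 0.04, edgeR adjusted p = 0.00024).

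Igfbp4 and Igfbp5, the most abundant of the binding protein genes, were not called, and neither was Igfbp2. Igfbp4 (mm10 chromosome 11, 99041260 to 99052643) had 694, 838 and 744 CPM in NU7441 samples, against 685, 751 and 740 CPM in DMSO samples, and NU7441 replicate 2 was the highest of the 6. Its log2 fold change was 0.06 ± 0.05 (edgeR adjusted p = 0.39), with a fold interval of 0.967 to 1.13. This value depended on which NU7441 sample was left out. Leaving out NU7441 replicate 2 gave -0.011 (edgeR adjusted p = 0.89), whereas leaving out NU7441 replicate 1 gave 0.12 and a call (edgeR adjusted p = 0.048).

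Igfbp5 (mm10 chromosome 1, 72858065 to 72874865) had 652, 670 and 706 CPM in NU7441 samples, against 641, 634 and 709 CPM in DMSO samples. The highest and the lowest sample were both DMSO samples. Its log2 fold change was 0.03 ± 0.04 (edgeR adjusted p = 0.62), with a fold interval of 0.962 to 1.09. Leaving out 1 sample moved this value to between -0.0020, without NU7441 replicate 3, and 0.084, without DMSO replicate 3. Igfbp2 (mm10 chromosome 1, 72824480 to 72852471), a neighbour of Igfbp5 on the chromosome whose product can also bind integrins, had 111, 99.97 and 93.7 CPM in NU7441 samples and 104, 92.0 and 92.8 CPM in DMSO samples. These groups overlapped. The log2 fold change of Igfbp2 was 0.08 ± 0.06 (adjusted p = 0.35, edgeR) with a fold interval of 0.969 to 1.15. It was 0.0069 without NU7441 replicate 1 and 0.14 without DMSO replicate 1, and was called in neither case. Intervals of these 3 genes and of Igf2r thus reach at most a 1.15-fold rise.

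Igfbp3 (mm10 chromosome 11, 7206091 to 7213923), the main carrier of IGF in serum, had 0 counts in all 6 samples. All deposited counts are even, as if each read pair gave 2 counts. A count of 0 then allows up to 3 read pairs, or 6 counts, which is 0.109 to 0.115 CPM in NU7441 samples and 0.0842 to 0.127 CPM in DMSO samples, without library scaling and for counting error only. It was removed by the filter on low counts and has no fold change.

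Within a sample, Igfbp4 made up the largest share of the binding protein transcripts. It took 54.6% ± 2.71 of their summed RPKM in NU7441 and 56.2% ± 1.72 in DMSO (SD, n = 3 each), and Igfbp5 took 17.2% ± 1.04 in NU7441 and 18.1% ± 0.894 in DMSO. The share of Igfbp7 was 10.7%, 9.36% and 9.79% in NU7441 samples, against 8.24%, 7.40% and 7.80% in DMSO samples, which did not overlap. The share of Igfbp6 was 7.19%, 6.45% and 6.76% in NU7441 samples, against 6.40%, 6.40% and 5.91% in DMSO samples, again without overlap but with NU7441 replicate 2 close to DMSO. These shares contain the rises of Igfbp7 and Igfbp6 given above and are not separate results. The summed level was 488, 519 and 486 RPKM in NU7441 samples and 461, 472 and 485 RPKM in DMSO samples.

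**Figure D3:**
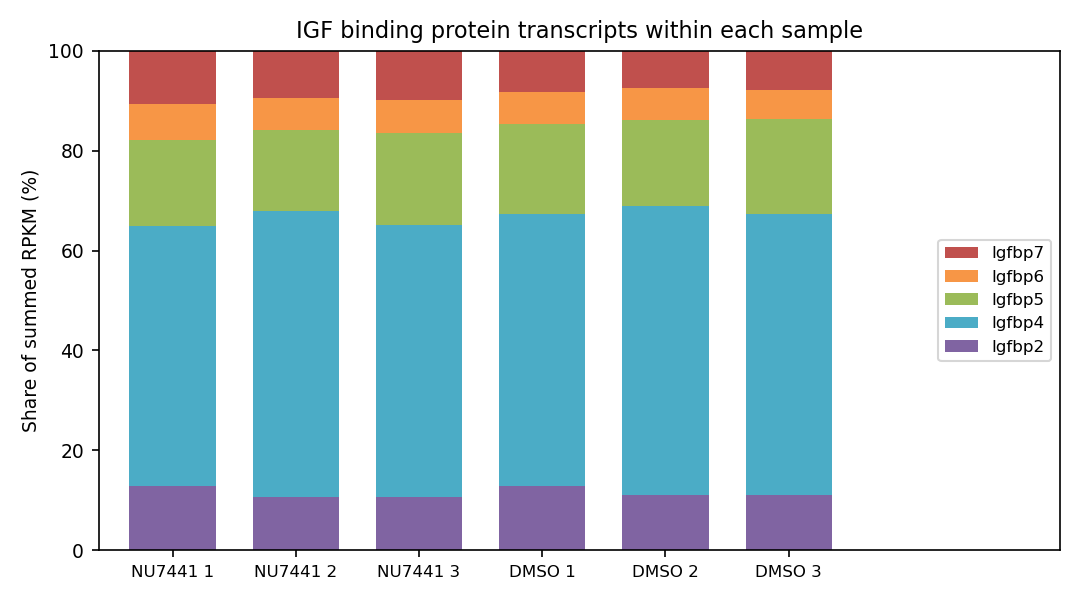
Share of each binding protein gene in their summed RPKM, as stacked percentages for the 3 NU7441 samples on the left and the 3 DMSO samples on the right. Igfbp4 takes 54.6% on average in NU7441 and 56.2% in DMSO, and the top segment, Igfbp7, takes 9.95% in NU7441 and 7.81% in DMSO.

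Genes that handle IGF outside the cell, or the RNA and relatives of its ligands and receptors, formed a list of 18. Among its 12 tested genes there were 4 higher and 1 lower calls, or 41.7%, against 30.7% of all tested genes, and the median log2 fold change was 0.0090. Another 5 had no counts (Igfbp1, Igfbpl1, Ins1, Ins2 and Insrr) and Stc2 fell under the filter. Pappa2 (mm10 chromosome 1, 158711731 to 158957438), which encodes a protease that cuts IGFBP3 and IGFBP5, rose. Per length it stood at 160 ± 11.4 RPKM in NU7441 and 127 ± 4.55 RPKM in DMSO, between Igfbp4 and Igfbp5. It had 1961, 1863 and 1746 CPM in NU7441 samples, against 1497, 1426 and 1395 CPM in DMSO samples. The groups were far apart. The log2 fold change was 0.37 ± 0.04 (edgeR adjusted p = 1.6e-06), or 1.29-fold with an interval of 1.22 to 1.36. The ratio of Pappa2 to Igfbp5 on the RPKM scale was chosen after the values were seen. It was 2.05, 1.90 and 1.69 in NU7441 samples and 1.59, 1.53 and 1.34 in DMSO samples. This ratio contains the rise of Pappa2 and is not a separate result.

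Pappa, which encodes the related protease that cuts IGFBP4, had 51.0, 52.7 and 50.5 CPM in NU7441 samples and 51.3, 52.9 and 50.2 CPM in DMSO samples, and its log2 fold change was -0.0019 ± 0.036 (adjusted p = 0.98, edgeR). It is named after its values were seen. The other calls of the list did not all hold when a sample was left out. Insr, the insulin receptor gene (0.15 ± 0.04), Furin, which encodes a convertase that processes precursors of receptors and ligands (0.13 ± 0.04), and Htra1, which encodes a secreted serine protease (0.18 ± 0.06), were higher on the log2 scale. All 3 of these calls were lost without DMSO replicate 1, which left 1 gene of the list higher, and that of Htra1 also without NU7441 replicate 2 and in a robust fit (edgeR adjusted p = 0.10 in both). H19, the imprinted noncoding RNA gene beside Igf2, was lower (-0.70 ± 0.24, edgeR adjusted p = 0.039) on only 36, 54 and 64 counts in NU7441 samples and 70, 92 and 112 counts in DMSO samples. Its call was lost when NU7441 replicate 1, NU7441 replicate 2, DMSO replicate 2 or DMSO replicate 3 was left out, with adjusted p values of 0.12, 0.064, 0.16 and 0.093.

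**Figure D4:**
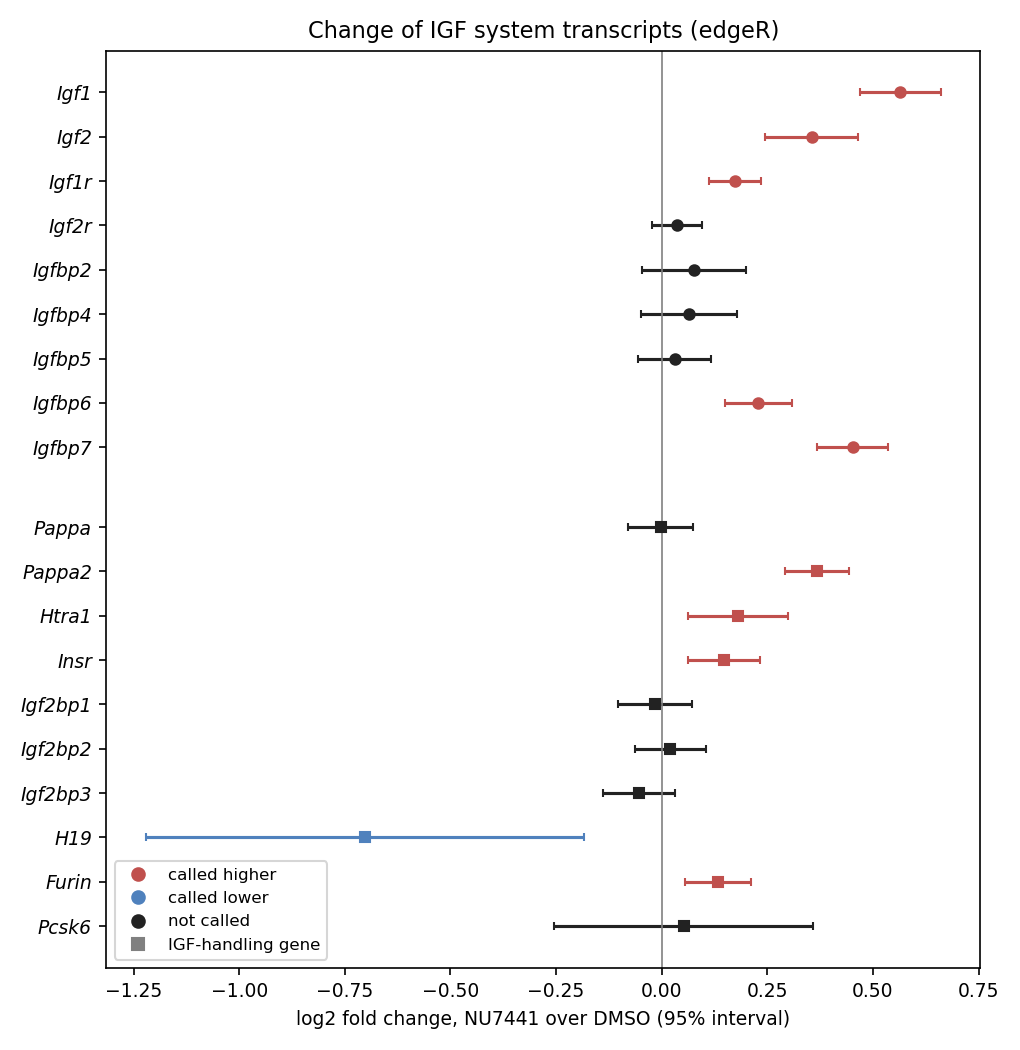
Log2 fold change of NU7441 over DMSO with its 95% interval from edgeR, for the 9 tested members (circles) and for the tested genes of the IGF-handling list that averaged at least 1 CPM in DMSO (squares), in red where called higher, blue where called lower and black where not called. Igf1 lies farthest to the right at 0.56, followed by Igfbp7 at 0.45, Pappa2 at 0.37 and Igf2 at 0.36, and H19 lies to the left at -0.70.

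Of the 35 genes that carry the signal below the receptors, 34 were tested, and their share of calls was close to that of all genes. There were 8 higher and 3 lower calls, or 32.4%, against 30.7% of all tested genes, 23 genes were not called, and the median log2 fold change was 0.035. With upper-quartile scaling 11 were higher and 1 lower. Irs2, an adaptor of the insulin and IGF1 receptors and a FOXO target, had 23.0, 23.0 and 23.5 CPM in NU7441 samples, against 17.8, 15.1 and 16.9 CPM in DMSO samples (log2 fold change 0.48 ± 0.06, edgeR adjusted p = 1.9e-05). The groups were apart, and this was the largest rise of the list. The adaptor genes Shc1 (0.23 ± 0.03) and Gab1 (0.15 ± 0.04), the transcription factor gene Foxo4 (0.26 ± 0.05) and Rictor, which encodes a subunit of mTOR complex 2 (0.16 ± 0.04), were higher too. Akt1, the kinase gene downstream of PI3K, was lower, with 148, 150 and 158 CPM in NU7441 samples and 169, 165 and 174 CPM in DMSO samples (-0.16 ± 0.03, edgeR adjusted p = 0.0017). Rps6kb1 (-0.13 ± 0.04) and Rheb (-0.11 ± 0.04), which encode a kinase and a GTPase of the mTOR complex 1 branch, were lower as well, but not under upper-quartile scaling (adjusted p = 0.080 and 0.097). The call of Rps6kb1 was also lost without NU7441 replicate 1, DMSO replicate 1 or DMSO replicate 2, and that of Rheb without NU7441 replicate 2, NU7441 replicate 3 or DMSO replicate 3. The number lower lay between 2 and 4 with each sample left out.

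The genes whose log2 CPM was most like that of Igf1 over the 6 samples, among 11868 others that averaged at least 1 CPM, were Abca5 (Pearson r = 0.999), Pla2r1 (r = 0.999) and Ptplad2 (r = 0.998). The difference between the groups is part of these correlations, which are a description over 6 samples in 2 groups. Pla2r1 averaged 98.6 ± 4.01 CPM in NU7441 and 78.5 ± 2.73 CPM in DMSO (SD, n = 3 each), and its log2 fold change was 0.33 ± 0.04 (edgeR adjusted p = 1.3e-05). Abca5 rose by 0.43 ± 0.06 on the log2 scale and Ptplad2 by 0.36 ± 0.04. None of the members fell, so no gene was matched to a fall.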

How the data were processed

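Per the submitters' processing notes, bcl2fastq, TopHat2 version 2.0.6, HTSeq and the build mm10 were used, and their settings are not given in the sources used here. Per the file headers, the table that the authors deposited gives every gene row its length and, for each sample, a read count and an RPKM value. It has 23358 rows. The deposited counts held 0 odd values, as if both reads of a pair had been counted, and halved counts were an alternative. Each deposited RPKM value divides a count by the gene length and by 1 total per sample, of which the gene counts make up 74.2% to 75.7%. There were 0 unmapped columns of sample values.

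Counts of all 6 samples were filtered with filterByExpr at its defaults, scaled by TMM and tested in edgeR 4.0.16 (R 4.3.3) by its quasi-likelihood test, two-sided, with group as the only term and adjustment over all genes tested. The SE is the log2 fold change divided by the square root of F, and the 95% interval uses the t distribution with the fit's degrees of freedom. CPM uses scaled library sizes. The procedure was also run on simulated counts as a check of the code, which does not vouch for any single call given here. Alternatives were other scalings, no filter, DESeq2 1.42.0, a robust fit, halved counts, a replicate block and leaving out each sample.

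The members and gene lists were chosen with earlier results of these data known. Named were all members and the 5 genes per list and direction with the lowest adjusted p. The 3 genes most like the member with the largest rise, overlapping genes with counts, and markers were named too. Mir483, whose interval overlaps that of Igf2, and Mir684-1, whose interval overlaps that of Igfbp4, had 0 counts in every sample. Of the list genes, Hras and Adgre1 were matched by an older symbol. No 2 samples of a group were identical or within sampling noise.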

Additional observations from a re-analysis of the deposited data

How the results depend on the processing

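The 5 members called higher kept that direction and call under all 14 alternatives, and 0 members were called lower in any. For Igf1 the log2 fold change lay between 0.52 and 0.60 with each sample left out and between 0.55 and 0.59 under the other settings. With each sample left out, 5 to 6 members were higher, and the added one was Igfbp4. Its log2 fold change lay between -0.011 (reversed, without NU7441 replicate 2) and 0.12, and that of Igfbp5 between -0.0020 (reversed, without NU7441 replicate 3) and 0.084. With each sample left out, 1 to 4 of the IGF-handling genes were higher and 0 to 1 lower, 6 to 8 of the signalling genes were higher and 2 to 4 lower, and of all genes 1494 to 1755 were higher and 1886 to 2155 lower. Upper-quartile scaling gave 11 higher signalling genes and 1 lower. The replicate block gave 5 lower signalling genes, 2417 higher and 2703 lower calls over all genes against 1941 higher and 2290 lower without it, and an adjusted p of 0.0497 for Igfbp2. Same-numbered samples had deviations that correlated at 0.13, 0.088 and 0.047, and each sample correlated best with its own number, a hint that is not enough to treat them as pairs. The order of levels from counts per kilobase was the same for all 10 members, but it uses the same deposited gene lengths and so could hardly differ. With the GENCODE lengths, 7 members in NU7441 and 8 in DMSO kept their rank. Low counts limit the precision of genes such as H19.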
